A study of Mus musculus with 27 samples.

Results

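Imprinted growth genes are genes of fetal growth that are read mainly from the maternal or the paternal copy. The 8 described here are H19, Igf2, Dlk1, Meg3, Peg3, Cdkn1c, Mest and Plagl1, chosen by name from a table of 54532 mouse genes. They were measured by bulk RNA sequencing of the tibialis anterior muscle of male C57BL/6 mice, 8 weeks old by the series record, after volumetric muscle loss (VML). In VML a part of the muscle, here 40% of it, is cut out and not replaced. There were 5 uninjured samples, and 5, 6, 6 and 5 samples taken on days 3, 7, 14 and 21. All groups were of the same strain, with no transgene or drug, and differed in the excision and in the time since then. The record calls the excision unilateral and the methods bilateral, and the sample labels do not settle this. The labels do not say that each sample is a separate mouse, so p-values measure the spread between these samples.

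H19 and Igf2 are neighbours that share enhancers. H19 is a maternally expressed long noncoding RNA, and Igf2 encodes a paternally expressed insulin-like growth factor. Dlk1 and Meg3 form a second such pair, in which paternal Dlk1 encodes a transmembrane protein of the Notch ligand family that restrains differentiation and maternal Meg3 is a long noncoding RNA. Cdkn1c, expressed from the maternal copy, encodes an inhibitor of cyclin-dependent kinases that stops the cell cycle as myoblasts differentiate. Peg3 and Plagl1 encode zinc finger proteins and Mest a hydrolase-like protein of the endoplasmic reticulum, all 3 expressed from the paternal copy. Most of these genes are high in fetal tissues and fall after birth, and H19, Igf2 and Dlk1 are known to be expressed again in regenerating muscle. The reads measured here do not separate the parental copies, and DNA methylation was not measured.

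The genes lie on 4 chromosomes of the mouse genome (build GRCm38). On chromosome 7, H19 (7:142575529-142578143) and Igf2 (7:142650766-142666816) are followed by Cdkn1c (7:143458339-143461050), and Peg3 (7:6703892-6730431) lies far from them. Dlk1 (12:109452823-109463336) and Meg3 (12:109541001-109571726) are on chromosome 12, Mest (6:30723547-30748465) on chromosome 6 and Plagl1 (10:13060504-13131694) on chromosome 10. H19 and Meg3 are annotated as noncoding and the other 6 as protein coding.

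H19 and Mest also carry microRNA genes inside them. The mature microRNAs are shown because H19 and Mest, their host genes, had the highest level of the 8 and the largest log2 fold change of those tested at day 3, respectively. The libraries were made from polyadenylated RNA. Sequences are those of RefSeq on GRCm38.p6, written 5′ to 3′, with the seed (bases 2 to 8) in capitals. No seed is shared among the 9 mature microRNAs that lie within the 8 genes.
miR-675-5p chr7:142577112-142577133 (minus strand): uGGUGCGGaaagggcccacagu
miR-675-3p chr7:142577078-142577099 (minus strand): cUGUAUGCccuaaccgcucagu
miR-335-5p chr6:30741314-30741336 (plus strand): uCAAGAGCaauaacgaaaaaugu
miR-335-3p chr6:30741354-30741375 (plus strand): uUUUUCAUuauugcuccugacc
miR-675 lies in an exon in 3 of the 7 annotated H19 transcripts, and miR-335, inside the bounds of Mest, in an exon of none (0 of 11) of its transcripts. The precursor of miR-675 had 0 reads in every sample, and that of miR-335 had 2 reads in 1 sample. The levels of the mature forms were therefore not measured.

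Imprints are held as methylation of CpG sites. The CpG sites before the transcription start are shown for 5 genes, and whether an imprint lies in these windows was not examined. RefSeq promoter windows were matched for 6 of the 8 genes, in 12 windows. H19 and Cdkn1c are named only. Each line below gives the 250 bases before a start, 5′ to 3′ on the gene's strand on GRCm38.p6, with every CpG in capitals.
Plagl1 chr10:13090582-13090831 (plus strand): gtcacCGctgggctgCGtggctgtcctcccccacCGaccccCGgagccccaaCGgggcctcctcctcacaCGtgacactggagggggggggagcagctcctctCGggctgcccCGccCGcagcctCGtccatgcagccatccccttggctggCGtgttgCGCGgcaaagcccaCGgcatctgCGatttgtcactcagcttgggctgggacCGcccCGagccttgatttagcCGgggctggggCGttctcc
Mest chr6:30737800-30738049 (plus strand): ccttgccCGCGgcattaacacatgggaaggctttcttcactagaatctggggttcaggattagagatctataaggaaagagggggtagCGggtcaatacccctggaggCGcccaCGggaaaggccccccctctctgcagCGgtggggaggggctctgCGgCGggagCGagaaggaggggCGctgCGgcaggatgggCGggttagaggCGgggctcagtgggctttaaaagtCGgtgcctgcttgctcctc
Meg3 chr12:109540746-109540995 (plus strand): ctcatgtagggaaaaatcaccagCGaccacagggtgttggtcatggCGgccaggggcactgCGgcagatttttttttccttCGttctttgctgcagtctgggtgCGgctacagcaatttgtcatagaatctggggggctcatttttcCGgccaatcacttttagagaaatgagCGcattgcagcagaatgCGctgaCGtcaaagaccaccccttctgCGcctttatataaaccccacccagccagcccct
Dlk1 chr12:109452573-109452822 (plus strand): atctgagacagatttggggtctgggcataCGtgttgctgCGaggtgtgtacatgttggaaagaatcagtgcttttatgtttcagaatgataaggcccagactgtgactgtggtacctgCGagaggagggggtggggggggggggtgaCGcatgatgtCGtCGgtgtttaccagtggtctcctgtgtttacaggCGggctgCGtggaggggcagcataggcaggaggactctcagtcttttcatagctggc
Peg3 chr7:6730420-6730669 (minus strand): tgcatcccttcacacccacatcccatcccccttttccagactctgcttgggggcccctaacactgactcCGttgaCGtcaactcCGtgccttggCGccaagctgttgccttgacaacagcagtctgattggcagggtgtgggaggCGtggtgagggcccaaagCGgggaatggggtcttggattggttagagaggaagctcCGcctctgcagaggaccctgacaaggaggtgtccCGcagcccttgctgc
The Plagl1 window held 19 CpG sites, and the Dlk1 and Peg3 windows 8 each. The Mest and Meg3 windows printed, with 14 and 10 sites, are those with the most CpG sites of each gene, since the other Mest windows held 7 and 14 and the other Meg3 window 0. The 4 Igf2 windows, with 6, 22, 10 and 1 sites, are not printed because Igf2 was too low to test. Over all 32851 windows of this length the median was 6 and the upper quartile 16. An E-box CAGCTG, the letters bound by myogenic regulators, was found on either strand in 1 of the 12 windows, a second Mest window, and in 4271 of all windows. This is a description of letters in these windows.

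Expression is given as FPKM, the fragments counted on a gene scaled for its length and for the mapped reads of the sample, as the authors deposited it. FPKM times gene length gave whole reads, 14376395 to 24436763 per sample. For tests, log2(FPKM + 1) of all samples was fitted with limma, and a gene was called at a Benjamini-Hochberg adjusted p under 0.05. Genes were tested where 5 or more samples reached 0.5 FPKM, which left 14630. Fold changes are on this scale, which understates the change of low genes. Igf2 did not pass the filter, so 7 of the 8 genes were tested.

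By summed macrophage markers, 2 libraries went against their labels. Day 7 replicates 3 and 6 differed from their group in other markers, given below, and were kept. The library labelled day 3 replicate 5 had 312 FPKM summed over 7 macrophage markers, against 997 to 2137 in the other 4 day 3 samples. The library labelled day 7 replicate 5 had 2006, against 44.8 to 409 in the other 5 day 7 samples. Results at days 3 and 7 are therefore given with and without this pair. Adult fibre markers were high in every group, at 18578 to 77995 FPKM summed over 8 genes, as the tissue label states. Their median sum was 72712 FPKM without injury and 35713, 37525, 44720 and 56125 on days 3, 7, 14 and 21, and 6, 3, 2 and 0 of the 8 were called lower. Without the pair 6, 0, 2 and 0 were lower, and 3, 0, 0 and 0 with every sample scaled to the same FPKM sum. With that scaling 322, 209, 107 and 7 of all 14630 tested genes were lower.

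The tested imprinted growth genes were higher on average after VML, and none was called lower. Dlk1, Plagl1 and Mest were at most at 0.290, 0.106 and 0.761 FPKM without injury. To reach 0.5 FPKM in 5 samples these genes needed injured samples. They also had little room to fall, which limits how their direction can be read. At day 3, 4 of the 7 tested genes were higher than in uninjured muscle (H19, Cdkn1c, Mest and Plagl1), where 23.4% of all tested genes were called higher. At day 7 all 7 were higher, against 15% of all genes, although H19 and Peg3 lost their calls under some alternatives given at the end. At day 14 H19, Cdkn1c, Peg3, Meg3 and Mest were higher, against 9.02%, and at day 21 Peg3 alone, against 1.74%. The median log2 fold change of the 7 genes was 1.25, 1.48, 1.40 and 0.57 on days 3, 7, 14 and 21. Over all tested genes the median was 0.01, 0.03, 0.02 and 0.01. The 4 comparisons share the uninjured samples. The median sum of adult fibre markers was lower at each time after injury, as given above, while calls of single fibre markers depended on the pair and the scaling. The part of fibre content in the result was not tested.

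Without the pair, 4, 7, 7 and 1 of the 7 genes were higher at days 3, 7, 14 and 21, against 23.8%, 12.4%, 11.6% and 2.52% of all genes. Dlk1 and Plagl1 joined the called genes at day 14. Without the pair the median log2 fold change was 0.89 at day 3 and 1.66 at day 7. At day 14 the count fell to 3 without day 14 replicate 1 or without day 14 replicate 5.

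Between successive time points no imprinted growth gene was called. This was 0 of 7 from day 3 to day 7, from day 7 to day 14 and from day 14 to day 21, against 0.0478%, 0.335% and 0% of all tested genes in either direction. At an unadjusted p under 0.05, limma gave 1, 0 and 0 of the 7, against 2301, 1821 and 909 of all 14630 tested genes. The 1 was Cdkn1c, lower at day 7 than at day 3 with a log2 fold change of -0.84 (SE 0.26, adjusted p = 0.0982). Limma with voom weights on the recovered reads called none of the 7. Without the pair, Dlk1 and Meg3 were called higher at day 7 than at day 3, where 3.53% of all genes were.

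**Figure D1:**
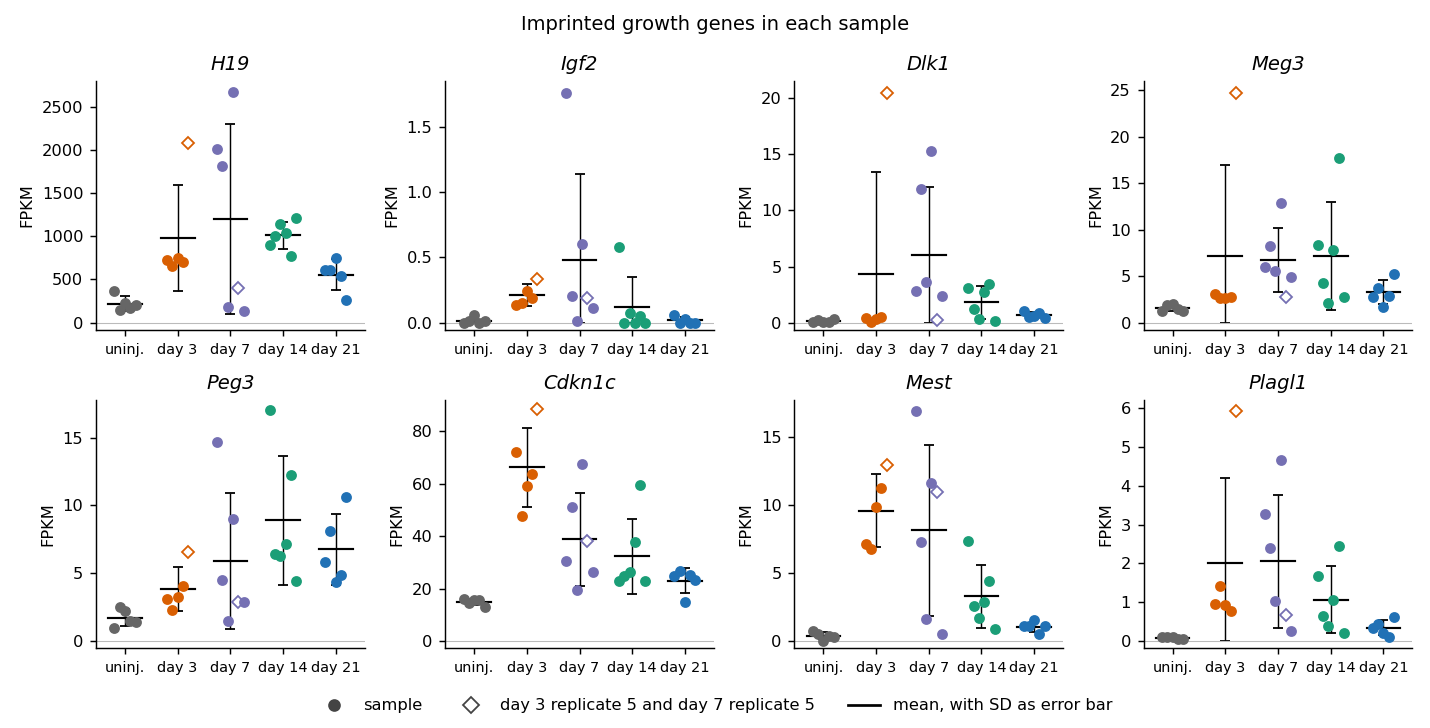
Expression of the 8 imprinted growth genes by sample, in FPKM on linear axes, for uninjured muscle and days 3, 7, 14 and 21 (n = 5, 5, 6, 6 and 5). Points are samples, horizontal lines means and error bars the SD, cut off at 0, with open diamonds for day 3 replicate 5 and day 7 replicate 5. Dlk1 and Meg3 at day 3 are low in 4 samples and at 20.5 and 24.8 FPKM in the diamond, and H19 at day 7 splits into 3 samples from 1818 to 2669 FPKM and 3 from 133 to 396.

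H19 was the most abundant of the 8 in every group, and was higher than in uninjured muscle at days 3, 7 and 14. Per length, it ranked 247th of 54532 genes in uninjured muscle, 44th at day 3, 35th at day 7, 46th at day 14 and 85th at day 21. It took a median of 0.0396% of all reads in uninjured muscle and 0.316% at day 7. Such a rank says nothing of protein, since H19 acts as RNA.

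In uninjured muscle H19 was at 363, 146, 228, 169 and 202 FPKM in the 5 samples. At day 3 it was at 724, 652, 744, 708 and 2078 FPKM, the last in replicate 5. Every day 3 sample thus lay above the uninjured range. At day 7 it was between 133 and 2669 FPKM with a median of 1107, and 4 of the 6 samples lay above the uninjured range. The 2 that did not were replicate 3 at 185 and replicate 6 at 133 FPKM. At day 14 it was between 775 and 1212 FPKM with a median of 1019 and every sample above the uninjured range. The coefficient of variation was 15.6% there and 91.2% at day 7. At day 21 it was at 612, 605, 754, 541 and 261 FPKM, with replicate 5 inside the uninjured range and the other 4 above it.

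The log2 fold change of H19 was 2.05 at day 3 (SE 0.60, adjusted p = 0.00735), 1.68 at day 7 (SE 0.57, 0.0296) and 2.24 at day 14 (SE 0.57, 0.00834). By day 21 it was 1.31 (SE 0.60), with an adjusted p of 0.222. Without the pair it was 1.74 at day 3 (adjusted p = 0.0262) and 1.83 at day 7 (0.0266). The day 7 call was lost when any 1 of uninjured replicates 2, 4 and 5 or day 7 replicates 1, 2 and 4 was left out, with adjusted p from 0.0538 to 0.0909. In order of mean level the groups were day 7, day 14, day 3, day 21 and uninjured, and each overlapped the next.

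Igf2, the growth factor next to H19, stayed near the limit of detection. In uninjured muscle it had 0, 1, 4, 0 and 1 reads, or at most 0.0596 FPKM. At day 3 it had 16, 14, 37, 25 and 41 reads, at 0.134, 0.150, 0.245, 0.192 and 0.337 FPKM. All 5 day 3 samples were above the uninjured range. At day 7 it was between 0.0103 and 1.76 FPKM with a median of 0.197, and replicate 1, with 271 reads, was the highest of all 27 samples. At day 14 reads were 74, 0, 8, 0, 5 and 0, and at day 21 they were 6, 0, 3, 0 and 0. Igf2 was therefore detected in every sample at days 3 and 7 and in 3 of 6 and 2 of 5 samples afterwards.

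The level of Igf2 is uncertain for a technical reason too. Of its exon bases, 62.8% are also annotated to Gm49394, a protein-coding gene on the same strand that is listed at 0 in every sample. How reads in both genes were counted is not given in the sources used here. Igf2os, transcribed from the other strand, had at most 26 reads.

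Cdkn1c was higher at days 3, 7 and 14, and varied little in uninjured muscle. It was at 16.1, 14.4, 15.7, 15.7 and 13.1 FPKM without injury and at 72.1, 47.6, 59.0, 63.7 and 88.2 FPKM at day 3. The ranges did not overlap. At day 7 it was between 19.6 and 67.3 FPKM (median 34.2) and at day 14 between 22.7 and 59.3 (median 25.5), again above every uninjured sample. The day 21 samples had 24.9, 26.9, 15.1, 25.2 and 23.4 FPKM, and 4 of 5 samples were above the uninjured range.

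For this inhibitor of the cell cycle the log2 fold change was 2.04 at day 3 (SE 0.27, adjusted p = 3.08e-06), 1.202 at day 7 (SE 0.26, 0.00152) and 0.97 at day 14 (SE 0.26, 0.00999). The day 21 value was 0.57 (SE 0.27, 0.235). Leaving out the pair gave 1.93 at day 3 (adjusted p = 7.48e-06) and 1.19 at day 7 (0.00341). The mean of Cdkn1c was highest at day 3 and lower at each later time, although no step between neighbouring times was called. An antisense gene, Gm44732, shares 30.7% of its exon bases and had at most 1 read.

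Mest, a hydrolase-like protein of the endoplasmic reticulum, had the largest log2 fold change of the 7 at day 3, with and without the pair. With all samples it was also the largest at day 7, but without the pair Dlk1 was higher, at 2.54 against 2.11. Uninjured muscle held 0.761, 0.560, 0.0216, 0.371 and 0.294 FPKM, and day 3 muscle 7.17, 6.74, 9.84, 11.3 and 12.96 FPKM. The lowest uninjured value was 1 read. At day 7 Mest was between 0.529 and 16.9 FPKM with a median of 9.13, with only replicate 6 inside the uninjured range. At day 14 it was between 0.860 and 7.33 FPKM (median 2.75), and at day 21 at 1.13, 1.09, 1.54, 0.506 and 1.09 FPKM.

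For Mest the log2 fold change was 2.91 at day 3 (SE 0.47, adjusted p = 3.41e-05), 2.28 at day 7 (SE 0.45, 8.87e-04), 1.48 at day 14 (SE 0.45, 0.0222) and 0.57 at day 21 (SE 0.47, 0.537). Leaving out the pair gave 2.80 at day 3 (adjusted p = 8.07e-05) and 2.11 at day 7 (0.00298). The day 14 call was lost without uninjured replicate 3, day 14 replicate 1 or day 14 replicate 5, with adjusted p from 0.0537 to 0.0578. Copg2 on the other strand shares 23.1% of the exon bases of Mest, and the libraries did not keep strand. Reads there cannot be told apart.

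The calls of Dlk1 changed with the 2 libraries that went against their labels. At day 3 it was at 0.432, 0.0973, 0.348 and 0.466 FPKM in replicates 1 to 4 and at 20.5 FPKM in replicate 5. At day 7 it was at 2.84, 11.9, 3.65, 15.3 and 2.38 FPKM in replicates 1, 2, 3, 4 and 6 and at 0.274 FPKM in replicate 5. Uninjured muscle had between 0.0301 and 0.290 FPKM, so that the library labelled day 7 replicate 5 lay inside the uninjured range and the other 5 above it. At day 14 Dlk1 was between 0.135 and 3.41 FPKM with a median of 1.96, and 5 of 6 samples were above the uninjured range. The day 21 samples had 1.06, 0.491, 0.611, 0.835 and 0.443 FPKM, with no overlap with uninjured muscle, at 28 to 101 reads against 2 to 24.

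With all samples the log2 fold change of Dlk1 was 1.03 at day 3 (SE 0.64, adjusted p = 0.206), 2.14 at day 7 (SE 0.61, 0.0107), 1.10 at day 14 (SE 0.61, 0.202) and 0.56 at day 21 (SE 0.64, 0.670). Without the pair it was 0.22 at day 3 (SE 0.41, adjusted p = 0.7002), 2.54 at day 7 (SE 0.38, 8.15e-05), 1.10 at day 14 (SE 0.37, 0.0308) and 0.56 at day 21 (SE 0.38, 0.407). From day 3 to day 7 it then rose by 2.32 (SE 0.41, adjusted p = 1.82e-04), with no overlap between the 4 and the 5 samples. From day 7 to day 14 it was -1.44 (SE 0.37, adjusted p = 0.119). Dlk1, a restraint on differentiation, was thus highest at day 7 with or without these libraries.

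Meg3 was detected in every sample and was called higher at days 7 and 14. It was at 1.25, 1.86, 2.002, 1.49 and 1.31 FPKM without injury. At day 3 it was at 3.04, 2.67, 2.63 and 2.80 FPKM in replicates 1 to 4 and at 24.8 FPKM in replicate 5. Each of these lay above the uninjured range. At day 7 Meg3 was between 2.80 and 12.9 FPKM (median 5.81) and at day 14 between 2.12 and 17.8 (median 6.07), all above uninjured muscle. At day 21 it was at 2.81, 3.75, 1.70, 2.92 and 5.27 FPKM, with replicate 3 inside the uninjured range.

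For this noncoding RNA the log2 fold change was 1.11 at day 3 (SE 0.46, adjusted p = 0.0541), 1.48 at day 7 (SE 0.44, 0.0148), 1.40 at day 14 (SE 0.44, 0.0268) and 0.69 at day 21 (SE 0.46, 0.425). Without the pair it was 0.56 at day 3 (SE 0.36, adjusted p = 0.216), 1.66 at day 7 (SE 0.34, 0.00146) and 1.40 at day 14 (SE 0.32, 0.00366). From day 3 to day 7 it then rose by 1.10 (SE 0.36, adjusted p = 0.0367). At day 3, leaving out any 1 of day 3 replicates 1, 2 and 3, day 7 replicates 4 and 5 or day 14 replicates 3 and 5 gave a call, with adjusted p from 0.0368 to 0.049997. The day 14 call was lost when any 1 of uninjured replicates 1, 4 and 5 or day 14 replicates 1, 4 and 5 was left out, with adjusted p from 0.0507 to 0.0852.

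Peg3 was called at days 7, 14 and 21, and was the only one of the 7 called at day 21. Without injury it was at 0.964, 2.499, 2.23, 1.4997 and 1.44 FPKM and at day 3 at 3.13, 2.28, 3.26, 4.04 and 6.56. At day 7 it was between 1.48 and 14.7 FPKM with a median of 3.70 and at day 14 between 4.44 and 17.004 with a median of 6.80. At day 21 it was at 5.84, 8.09, 4.36, 4.88 and 10.6 FPKM. At days 14 and 21 every sample was above the uninjured range.

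For this zinc finger gene the log2 fold change was 0.81 at day 3 (SE 0.38, adjusted p = 0.0885), 1.08 at day 7 (SE 0.36, 0.0262), 1.77 at day 14 (SE 0.36, 0.00205) and 1.48 at day 21 (SE 0.38, 0.0290). Leaving out the pair gave 0.63 at day 3 (adjusted p = 0.209), 1.19 at day 7 (0.0236) and 1.48 at day 21 (0.0234). The day 21 call was lost when any 1 of uninjured replicates 1, 4 and 5 or day 21 replicates 1, 2 and 5 was left out, with adjusted p from 0.0543 to 0.0818. The day 7 call was lost without uninjured replicate 1, 4 or 5 or day 7 replicate 1 or 4, with adjusted p from 0.0507 to 0.0765, and at day 3 Peg3 was called without day 7 replicate 1 (0.0485). In order of mean level the groups were day 14, day 21, day 7, day 3 and uninjured, the only gene of the 8 with day 21 in the second place, and each group overlapped the next.

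Plagl1 was near the limit of detection without injury, at 6 to 13 reads. The uninjured samples had 0.106, 0.0966, 0.0981, 0.0623 and 0.0524 FPKM. At day 3 it was at 0.962, 1.42, 0.935 and 0.769 FPKM in replicates 1 to 4 and at 5.92 in replicate 5. At day 7 it was between 0.257 and 4.67 FPKM (median 1.72), at day 14 between 0.217 and 2.45 (median 0.846) and at day 21 at 0.349, 0.432, 0.221, 0.111 and 0.619. In every injured sample this transcription factor was thus above the uninjured range.

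The log2 fold change of Plagl1 was 1.25 at day 3 (SE 0.36, adjusted p = 0.00644), 1.30 at day 7 (SE 0.34, 0.00673), 0.84 at day 14 (SE 0.34, 0.0826) and 0.30 at day 21 (SE 0.36, 0.680). Without the pair it was 0.89 at day 3 (adjusted p = 0.0237), 1.43 at day 7 (0.00164) and 0.84 at day 14 (0.0326). At day 14 it was also called without day 3 replicate 5 alone (0.0423).

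**Figure D2:**
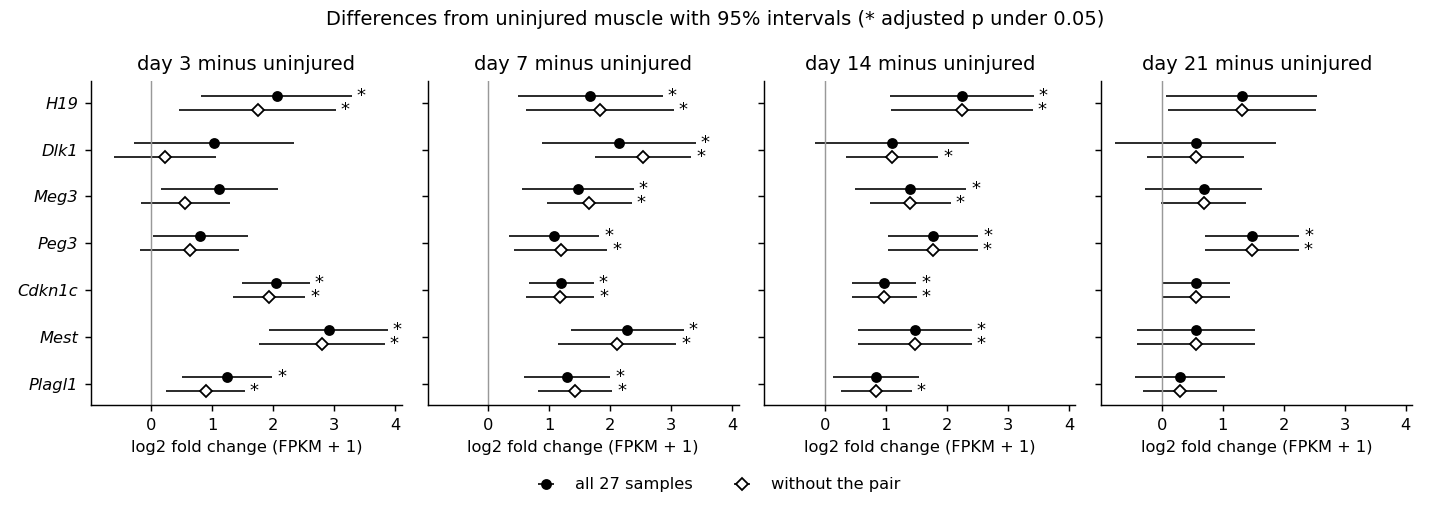
Log2 fold changes of FPKM + 1 against uninjured muscle for the 7 tested genes at each time point, with 95% confidence intervals from limma; filled circles are all 27 samples, open diamonds leave out day 3 replicate 5 and day 7 replicate 5, and asterisks mark an adjusted p under 0.05. At day 3 the pair moves Dlk1 from 1.03 to 0.22 and Meg3 from 1.11 to 0.56, and at day 21 only Peg3 carries an asterisk.

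The low day 7 samples were low in several of these genes at once. Replicate 6 had the lowest H19 of its group, and its Mest of 0.529 FPKM and Plagl1 of 0.257 FPKM were also the lowest. Replicate 3 had the lowest Igf2, Peg3 and Cdkn1c, at 0.0103, 1.48 and 19.6 FPKM. In both samples the 8 markers of satellite cells and myoblasts summed to 33.3 and 34.1 FPKM, within the uninjured range of 25.8 to 35.6, while the other 4 day 7 samples had 142 to 288. Their 5 Schwann cell markers summed to 136 and 991 FPKM, against 11.1 to 28.6 in the other 4, and their 6 markers of regenerating fibres to 88.9 and 103, against 163 to 836. Adult fibre markers summed to 71503 and 64501 FPKM, against 22497 to 45580 in the other 4, and 5 adipocyte markers to 396 and 298, against 52.0 to 222. None of the 8 markers was at 0 in all samples of a group. On day 3 these sums ran from 115 to 464, on day 14 from 113 to 208, and on day 21 from 54.0 to 163, where replicate 5 had the lowest sum and the lowest H19. The part of these cells in the level of H19 was not tested. In bulk muscle, fewer cells of a type and less RNA per cell cannot be told apart.

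Fibro-adipogenic progenitors, the connective tissue cells of muscle, also moved with these genes. Their 8 markers summed to between 120 and 176 FPKM without injury, and the range was 484 to 974 on day 3, 391 to 1194 on day 7, 219 to 602 on day 14 and then 180 to 276. The library labelled day 3 replicate 5, which held the highest level of all 8 imprinted growth genes in its group, also had the highest sum, whereas its sum of satellite cell and myoblast markers, 115 FPKM, was the lowest. Of the 7 tested fibro-adipogenic markers, 6, 5, 6 and 2 were called higher on days 3, 7, 14 and 21. Of the 8 satellite cell and myoblast markers these counts were 6, 4, 4 and 3. Without the pair they were 5, 5, 6 and 2, and 6, 4, 4 and 4. In that fit 1 satellite cell and myoblast marker was called lower at each of days 3, 14 and 21. With every sample scaled to the same FPKM sum no marker of either list was called at day 21, where 42 of all 14630 tested genes were called higher. The shares of all genes called higher are those given above, from 23.4% to 1.74%. Their part in the levels of Dlk1, Meg3 and Mest was not tested.

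**Figure D3:**
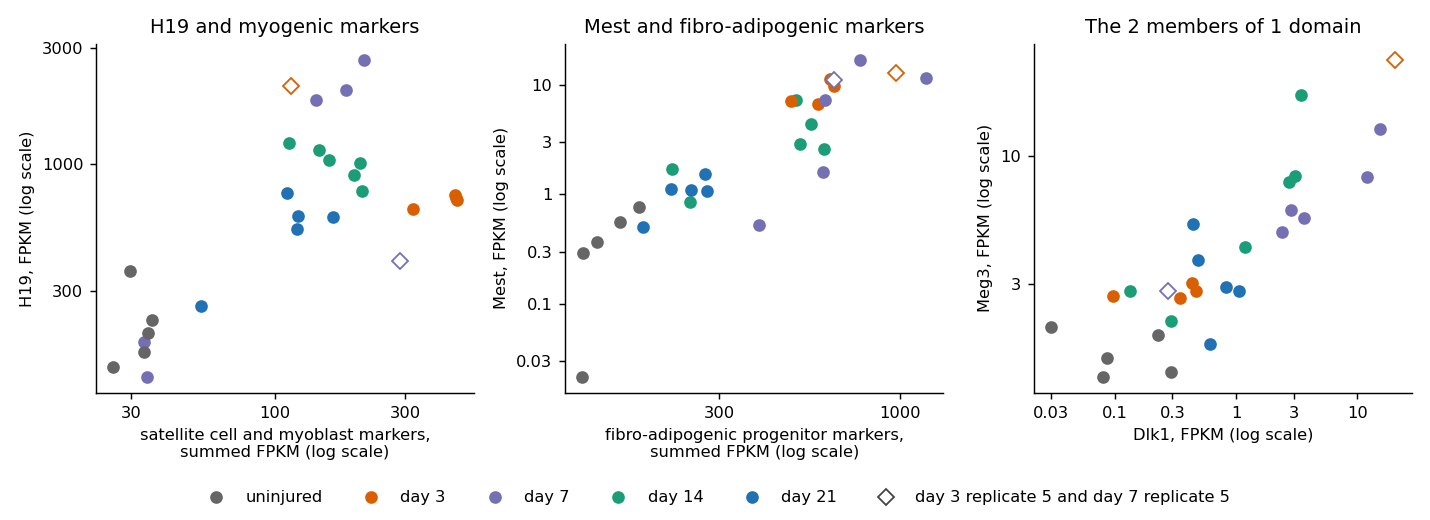
Levels in each of the 27 samples on log scales, coloured by group: H19 against the summed FPKM of 8 satellite cell and myoblast markers (left), Mest against that of 8 fibro-adipogenic progenitor markers (middle), and Meg3 against Dlk1 (right). Open diamonds are day 3 replicate 5 and day 7 replicate 5. Day 7 replicates 3 and 6, with 185 and 133 FPKM of H19, lie among the uninjured samples in the left panel.

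Among the 7 tested genes, Dlk1 and Meg3 had the most similar patterns. Their log2(FPKM + 1) had a Pearson r of 0.882 over the 27 samples, which share groups, and of 0.882 after subtraction of the group means. Plagl1 was next to both, with r of 0.866 to Meg3 and 0.839 to Dlk1. Over all samples Cdkn1c and Peg3 had the lowest r at 0.336, which was 0.459 within groups, where H19 and Meg3 had the lowest at 0.300. These values are descriptions over samples that differ in injury and in cell content.

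Among all other tested genes, those most like each member were also recorded. The genes most like Meg3 were Rian (r = 0.930) and Mirg (0.902), noncoding RNAs of the same imprinted domain, and C1s1 (0.899). For Dlk1 they were C1s1 (0.896), Agtr2 (0.895) and Islr (0.874). The genes closest to H19 were Myh8 (0.915), the perinatal myosin heavy chain, Pcbd1 (0.902) and Mdfi (0.891). Mest was closest to Tgfbr2 (0.958), a receptor of TGF-beta, and to the collagens Col18a1 (0.946) and Col6a3 (0.946). Plagl1 was closest to Igfbp4 (0.901), Rian (0.898) and Maged2 (0.892). Cdkn1c was closest to H2-Ab1 (0.907), Cmtm3 (0.900) and Mxra7 (0.894), and Peg3 to Plekha5 (0.893), Zfc3h1 (0.890) and Plekhh2 (0.885).

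The ratio of the maternally to the paternally expressed gene was compared within samples. For H19 to Igf2 the log2 ratio of FPKM + 0.1 was 10.8 on average in uninjured muscle and 11.5, 10.8, 12.6 and 12.1 on days 3, 7, 14 and 21. The differences from uninjured muscle were 0.65, -0.02, 1.75 and 1.29. By two-sided exact permutation tests, adjusted over 8 comparisons, p was 0.159, 0.952, 0.0693 and 0.0693, so none passed with 0.1 added. Since Igf2 was close to 0 in many samples, this ratio moves with the value added to it. With 1 added the ratio mostly follows H19, since Igf2 was at most 0.337 FPKM at day 3 and 0.582 at day 14. Every day 3 and day 14 ratio then lay above every uninjured ratio, as H19 itself did. The unadjusted exact permutation p was then the smallest possible, 0.00794 at day 3 and 0.00433 at day 14. The outcome of the test thus depends on the value added.

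For Meg3 to Dlk1 the mean log2 ratio was 2.89 in uninjured muscle and 2.32, 0.81, 2.19 and 2.07 on days 3, 7, 14 and 21. The differences were -0.57, -2.08, -0.70 and -0.82, with adjusted exact permutation p of 0.526, 0.0693, 0.266 and 0.266. With 1 in place of 0.1 added to FPKM, the differences at days 3, 14 and 21 turned to 0.089, 0.30 and 0.13. The day 7 difference stayed negative but shrank, since with 1 added the log2 fold changes were 1.48 for Meg3 and 2.14 for Dlk1. Without day 3 replicate 5 the day 3 difference was -0.06. At day 7 the ratio lay between -0.53 and 2.95 with a median of 0.81, the highest being replicate 5, and the lowest uninjured ratio was 1.85. With 0.1 added, the ratio was thus lower in 5 of 6 day 7 samples than in any uninjured sample, although the adjusted test was not passed. In replicates 2 and 4 Dlk1 exceeded Meg3, with log2 ratios of -0.53 and -0.25. With 1 added, replicate 1 no longer lay below every uninjured ratio.

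**Figure D4:**
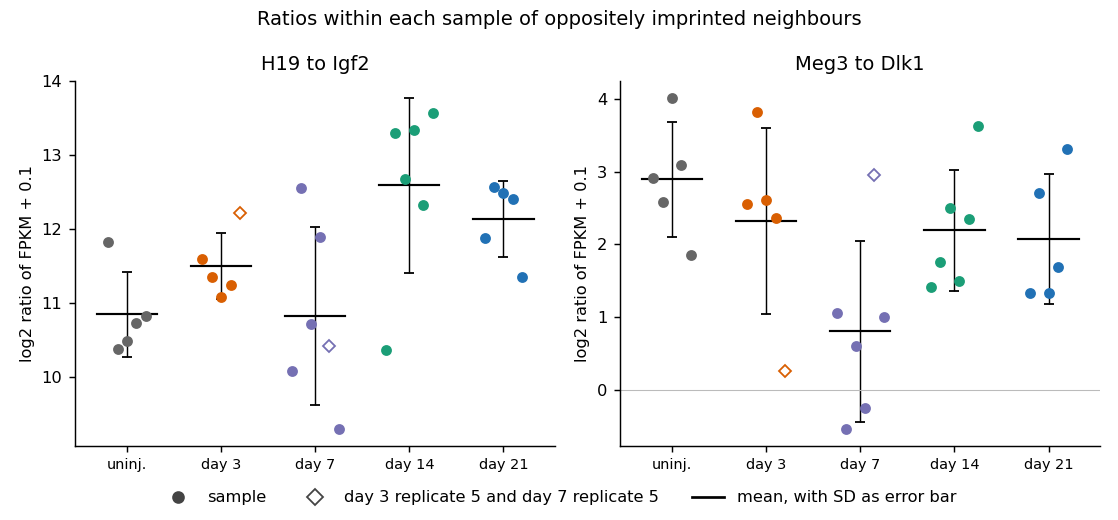
Log2 ratios of FPKM + 0.1 within each sample, H19 to Igf2 (left) and Meg3 to Dlk1 (right), for uninjured muscle and days 3, 7, 14 and 21; lines are means, error bars the SD and open diamonds day 3 replicate 5 and day 7 replicate 5. For Meg3 to Dlk1 the day 7 mean of 0.81 is below the uninjured mean of 2.89, and the diamonds sit apart from their own groups.

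Genes of the insulin-like growth factor pathway were read for context. Of the 4 tested ligands and receptors, Igf1, the other growth factor, and Igf2r, the receptor that clears IGF2, were higher at day 3 and Insr, the insulin receptor, was lower. Igf1 was at 3.77 FPKM on average without injury, 7.32 at day 3 and 7.86 at day 7, against 0.0163, 0.211 and 0.480 for Igf2. Igf1 had a log2 fold change of 0.78 at day 3 (adjusted p = 0.00559) and 0.84 at day 7 (0.00456). At day 3 the split was 2 higher and 1 lower, 2 and 0 once every sample was scaled to the same FPKM sum and 1 and 2 after quantile normalization. Without the pair Igf2r was not called, with an adjusted p of 0.0537. Of the 6 tested IGF-binding proteins, 3, 4, 4 and 1 were higher on days 3, 7, 14 and 21, both with the pair and when it was left out, and none was lower. With every sample scaled to the same FPKM sum these counts were 6, 6, 5 and 0. In that fit 6868, 6304, 1678 and 42 of all 14630 tested genes were called higher. Igfbp4 led at days 3 and 7, with log2 fold changes of 1.82 and 2.26, and Igfbp2 at days 14 and 21 with 2.30 and 2.14. Of the 3 binding proteins of IGF2 mRNA only Igf2bp2 was expressed enough to test, and it was higher at day 3 alone (0.49, adjusted p = 6.93e-04).

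Of the neighbours of Meg3, the noncoding RNAs Rian and Mirg rose at days 3 and 7. Rian had a log2 fold change of 0.89 at day 3 (adjusted p = 0.0283) and 0.93 at day 7 (0.0250), and Mirg 0.81 (0.0114) and 0.68 (0.0357). Without the pair neither was called at day 3 (Rian 0.56, adjusted p = 0.125, and Mirg 0.57, 0.0535), as for Meg3 and Dlk1. Dio3, an enzyme that inactivates thyroid hormone at the far end of the domain, was called at day 3 with and without the pair (0.69 and 0.86). Of the 10 tested neighbours 4 were higher and 3 lower at day 3, which became 5 and 0 with a common sum and 1 and 3 after quantile normalization, and it was 2 and 3 without the pair. The counts over all genes under these scalings are given below. Around H19 and Igf2, 2 of 6 tested neighbours were higher and 3 lower at day 3, 3 and 2 with a common sum, 3 and 1 after quantile normalization and 3 and 3 without the pair. Here Tnni2 and Tnnt3, the fast troponins that flank the locus, had log2 fold changes of -1.60 and -1.57 while H19 had 2.05.

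Most other imprinted genes did not follow a single direction. Of 32 tested imprinted genes outside the 8, 13 were higher and 8 lower on day 3, 12 higher and 4 lower on day 7, 5 of each on day 14, and 1 higher and 2 lower on day 21. Over all tested genes, 19.8%, 14.4%, 11.3% and 1.69% were lower on these days, beside the shares called higher given above. The median log2 fold change at day 3 was 0.27, against 1.25 for the 7 growth genes. Both sets were chosen with earlier results of these data known, so this contrast is a description and was not tested. Grb10, an inhibitor of insulin receptor signalling, and Ndn rose at day 3 by 1.34 and 1.14 on the log2 scale, whereas Asb4 and Slc38a4 fell by 1.22 and 1.21. The day 3 split was 18 and 1 with a common sum, 18 and 2 with each sample's own total of reads and 6 and 8 after quantile normalization, and it was 9 and 8 without the pair. The day 14 split was 4 and 1, 6 and 3, and 2 and 6 under these scalings, and the day 7 split 18 and 1, 16 and 2, and 8 and 5. Over all 14630 tested genes, in the same order of scalings, the day 3 split was 6868 and 322, 6534 and 618, and 2774 and 3734. At day 14 it was 1678 and 107, 2275 and 288, and 1007 and 1304. At day 7 it was 6304 and 209, 5348 and 424, and 1700 and 2147. For the 7 growth genes no scaling turned a direction at any time point. The common sum and the own totals moved the median of all genes upward, so they could hardly have turned a rise. Quantile normalization moved this median to -0.12 at day 3.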

How the data were processed

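Whole tibialis anterior RNA was sequenced from polyadenylated transcripts with libraries that did not keep strand. According to the submitters' processing notes the reads were mapped with HISAT2 2.0.5 and counted per gene with featureCounts 1.5.0-p3, and the authors deposited FPKM per gene and sample. FPKM times gene length gave whole reads within 0.05, at 14376395 to 24436763 per sample, and the number of samples limits the precision more than this depth, except for Igf2, Plagl1, Dlk1 and Mest in uninjured muscle. Groups were taken from the labels. Log2(FPKM + 1) of 27 samples was fitted with limma 3.58.1 (R 4.3.3, trend) over genes that reached 0.5 FPKM in 5 or more samples, for 7 comparisons, each adjusted by Benjamini-Hochberg. The fit was tested on simulated data. Ratios were compared by exact permutation tests (scipy 1.17.1). All 8 genes were named, with the 3 genes most like each tested one, and the genes of the pathway and neighbour lists with the largest called changes. Members and lists were chosen with earlier results of these data known. Replicate numbers were not used to pair samples in the main fit. Over 51 same-numbered pairs the median correlation of deviations was -0.0031, with a range from -0.52 to 0.57 and 15 pairs above 0.1. Between day 7 and day 14 it was 0.0915 to 0.566, so a shared factor behind some numbers cannot be told from this median. Alternatives covered the pseudocount, filter, scaling, weights, samples and block.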

Additional observations from a re-analysis of the deposited data

Results flagged for a closer look

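Of 40 groups of samples (8 genes in 5 groups), 7 held a sample far from the rest by Dixon's criterion, which chance reaches in about 1 in 20 groups. The library labelled day 3 replicate 5 was the highest of its group for H19 at 2080 FPKM (next 744), Dlk1 at 20.5 (next 0.466), Meg3 at 24.8 (next 3.04) and Plagl1 at 5.92 (next 1.42). Igf2 stood apart in uninjured replicate 3 at 0.0596 FPKM (next 0.0119) and in day 14 replicate 1 at 0.582 FPKM (next 0.0746). Cdkn1c was the lowest of its group in day 21 replicate 3, at 15.1 FPKM (next 23.4).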

How the results depend on the processing

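No fold change of the 7 tested genes against uninjured muscle changed sign under any alternative run. At day 14 the count of called genes was 3 without a filter, and leaving out 1 library gave 3 to 6. At day 21 it was 0 without a filter, with a common sum, with quantile normalization and with each sample's own total, 3 with quality weights and 4 with only the 2 groups fitted, and leaving out 1 library gave 0 to 1. From day 3 to day 7 it was 1 with quality weights and 2 without the pair, and leaving out 1 library gave 0 to 1, with 1 without day 3 replicate 5 or day 7 replicate 5. For days 3 and 7 leaving out 1 library gave 4 to 5 and 5 to 7. At day 7, H19 and Peg3 were not called without a filter (limma, adjusted p = 0.0723 and 0.0634). The same held with only the 2 groups fitted (0.128 and 0.0743), and Peg3 was not called with quantile normalization (0.0618). With the replicate block, by number or letter, the counts were 5, 7, 6 and 1. Meg3 at day 3 and Plagl1 at day 14 were added, although no label states that the numbers pair the samples. Relative to uninjured muscle a common sum moved the median of all genes by 0.51, 0.48, 0.29 and 0.12 on the log2 scale and each sample's own total by 0.40, 0.36, 0.25 and 0.12. Both scalings move changes upward and so are weak checks of a rise. Voom weights on recovered reads, chosen after seeing the data, gave 6, 6, 4 and 1, without Dlk1 at day 7 (4.74, adjusted p = 0.0943) and Mest at day 14 (3.30, 0.105). The 2 planned count models were not run, since the deposited unit is FPKM. With 1 added to FPKM the H19 to Igf2 ratio differed from uninjured muscle by 1.80, 1.23, 2.13 and 1.31 at days 3, 7, 14 and 21, and with 0.5 by 1.60, 0.96, 2.05 and 1.31. The Meg3 to Dlk1 difference with 1 added was 0.089, 0.30 and 0.13 at days 3, 14 and 21, and 0.056 at day 14 with 0.5. Its day 7 value with 1 added stayed negative but was smaller in size than with 0.1. At day 7 the H19 to Igf2 difference was 0.06 without the pair and 0.28 with the replicate block. Leaving out 1 sample gave 0.47 to 0.90, -0.37 to 0.28, 1.55 to 2.19 and 1.17 to 1.54 for H19 to Igf2, the 2.19 without day 14 replicate 1 (adjusted exact permutation p = 0.0462). It gave -0.94 to -0.06, -2.51 to -1.80, -0.99 to -0.42 and -1.13 to -0.54 for Meg3 to Dlk1. Igf2, at 0 to 4 reads without injury, sets how far its ratio can be read. The cause of these changes was not tested.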

Other observations

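Genes that keep or read imprints were also measured. Of 12 tested, 6 were higher and 2 lower at day 3, and 6 and 0 once every sample was scaled to the same FPKM sum. With that scaling 6868 of all 14630 tested genes were higher and 322 lower. Uhrf1 and Dnmt1, which copy DNA methylation after replication, had log2 fold changes of 2.27 (limma, adjusted p = 3.36e-06) and 1.27 (6.995e-05). Dnmt3a, a methyltransferase that sets new methylation, had -0.57 (6.05e-04), a sign that turned with a common sum. Of 12 listed proliferation genes, 12, 8, 1 and 0 were higher on days 3, 7, 14 and 21, and without day 3 replicate 5 and day 7 replicate 5 these counts were 12, 7, 8 and 0. The 1 at day 14 was 0 with a common sum, quantile normalization or each sample's own total of reads. Of the 2 relatives of Cdkn1c, Cdkn1a had log2 fold changes of 2.97, 2.55, 2.47 and 2.30 on the same days, all called, the last not under those 3 scalings. Cdkn1b had -0.47 at day 3 (adjusted p = 0.0116), a sign that turned with a common sum and with each sample's own total of reads.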
